A study of Homo sapiens with 2 samples.

Results

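To see how the machinery of DNA mismatch repair was expressed in precursor B-cell leukemia of the acute lymphoblastic type (BCP-ALL), the reads of 6 genes were followed in RNA sequencing libraries of the cell lines REH and 697. The genes were MSH6, MSH3, PMS2, PMS1, MLH3 and EXO1. They were chosen by name, as components of the repair complexes, and matched to Ensembl gene IDs. They are 6 of the 57773 gene IDs in the files. REH is a line from 1 patient with an ETV6/RUNX1 fusion, and the other ETV6 allele is missing from it. 697 is a fusion-negative BCP-ALL line, also from 1 patient. Both lines were grown untreated in RPMI medium with fetal bovine serum, and each gave 1 library. With 1 library per line there was no replicate to measure spread, so no test was possible and each difference is one between these libraries.

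Mismatch repair removes bases that were wrongly paired, or short loops that were left, when DNA was copied. In the cell, MSH6 and MSH3 compete for a common partner to form the MutS complexes that find the error. The MSH6 complex binds single mispairs and small loops, and the MSH3 complex binds loops, including larger ones. PMS2, PMS1 and MLH3 likewise compete for a common partner to form the MutL complexes. The PMS2 complex carries the nuclease that nicks the new strand. The MLH3 complex takes part in meiotic crossing over and in the instability of repeats, and the role of the PMS1 complex is poorly known. EXO1 degrades the nicked strand, which DNA polymerase and ligase then rebuild. The common partners were not analysed here. Loss of mismatch repair is known in leukemia for resistance to thiopurines, drugs that are part of the treatment of ALL.

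The REH library held 63954817 reads, of which 45188375 (70.7%) were counted in genes, and the 697 library held 58948890 reads, of which 41097497 (69.7%) were counted. Levels are given as CPM, a read count set relative to the library total after totals were scaled by the trimmed mean of M-values (TMM). Differences are given as log2 ratios of REH over 697. The interval beside a value is a 95% interval that covers counting error only. It is exact for a log2 ratio (Clopper-Pearson) and for a CPM (Poisson). For a share, or for a difference between log2 ratios, it is a normal approximation. Reads that mapped to several places were not counted, and made up 10.8% of the REH library and 15.4% of the 697 library. All 7 B lineage markers had at least 10 reads in a library, with a summed level of 3596 CPM in REH and 6820 CPM in 697. DNTT made up most of the sum in 697, with 4433 CPM against 1142 CPM in REH. Of the 7 markers 4 had log2 ratios above 0, among them CD79A (1.19) and CD79B (24198 reads in REH and 4443 in 697), and VPREB1 had 3 reads in REH and 10039 in 697. The 4 T lineage markers summed to 0.935 CPM in REH and 0.0271 CPM in 697, and the 3 erythroid markers to 0.418 and 0.379 CPM. The 4 myeloid markers summed to 253 CPM in REH and 2.25 CPM in 697. MPO, with 12643 reads in REH and 12 in 697, was nearly all of the sum in REH, and CSF1R, with a log2 ratio of -1.46, was most of it in 697. The part of these marker differences in the values below was not tested.

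A gene counted as higher in a line when its level differed by at least 2-fold, that is, by a log2 ratio of 1 or more in either direction. Of the 6 genes, 1 was higher in REH (MLH3) and 1 was higher in 697 (EXO1). By the same limit, the calls took in 22.4% of the compared genes on the side of REH and 17.4% on the side of 697. The compared genes were the 19145 that had 10 or more reads in REH or in 697. With the limit at 2 on the log2 scale, MLH3 was still higher in REH and none of the 6 was higher in 697, while the shares over all genes were 12.5% and 8.15%. A difference of the size seen in MLH3 or EXO1 was therefore common among all genes of these libraries. The 6 genes had a median log2 ratio of -0.65, and 5 of them lay below 0, whereas the median of all compared genes was 0.05 and 47.9% of them lay below 0. Without TMM scaling every ratio rose by about the same amount. The median of the 6 genes was then -0.34 beside 0.36 for all genes, and 4 of the 6 lay below 0, since PMS2 changed sign.

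**Figure D1:**
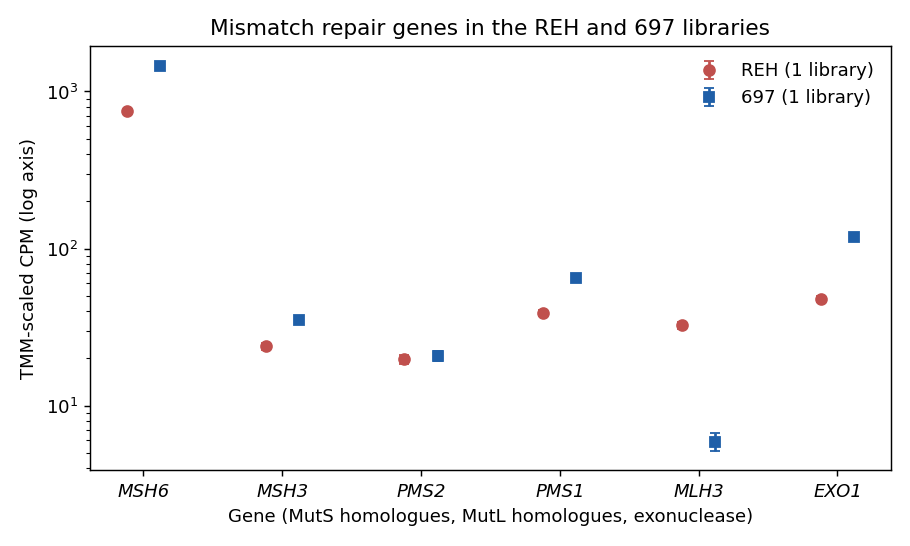
TMM-scaled CPM (log axis) of the 6 genes in the REH library and the 697 library; each point is 1 library and the bars are 95% counting intervals. MSH6 stands far above the other genes in both libraries, at 750 and 1458 CPM, and MLH3 is lowest in 697, at 5.90 CPM.

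**Figure D2:**
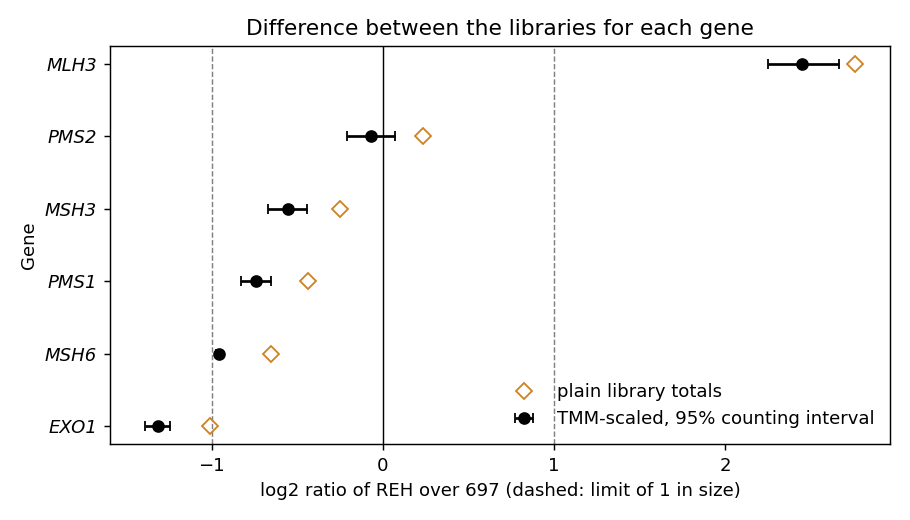
Log2 ratio of REH over 697 for each of the 6 genes, with 95% counting intervals (filled points) and, as open diamonds, the ratio from plain library totals; dashed lines mark a log2 ratio of 1 in either direction. MLH3 lies at 2.45 and EXO1 at -1.32, and PMS2 is the gene whose sign depends on the scaling.

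Because many genes of DNA replication carry an E2F-type element near their start, the promoters of the 6 genes were searched for one. E2F factors are the transcription factors that switch on such genes as cells enter S phase. The windows came from RefSeq on GRCh38.p14, ran from 250 bases before to 50 bases after the start of each gene, and were found for all 6. The letters searched, on both strands, were TTTCCCGC, TTTCGCGC, TTTGCCGC and TTTGGCGC. MSH6, MSH3, PMS2 and EXO1 held a match and PMS1 and MLH3 held none. Of 35116 promoters of the same length, 1164 (3.31%) held one. MSH3 held 2 matches, which overlap each other on opposite strands, and is not shown. The stretches of MSH6, PMS2 and EXO1, which held 1 match each, are shown as examples of this shared feature. The match is in capitals and each stretch is read in the direction of its gene. They lay at chr2:47783137-47783166 (plus strand) for MSH6, chr7:6009131-6009160 (minus) for PMS2 and chr1:241848197-241848226 (plus) for EXO1.
MSH6: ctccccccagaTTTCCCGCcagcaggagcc
PMS2: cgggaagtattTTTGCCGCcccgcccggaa
EXO1: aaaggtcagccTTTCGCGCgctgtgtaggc
The matches lay close to the start in MSH6 and EXO1, where the first base was 3 and 4 bases after it, and 100 bases before it in PMS2. A match is a run of letters and not evidence that a factor bound there.

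The MLH3 promoter differed from the others in its base composition. G and C made up 51% of its 300 bases, beside 61.7% in PMS2, 65% in EXO1, 71% in MSH3, 72% in PMS1 and 78% in MSH6, with a mean of 57.5% over all promoters. It also held no GC box (GGGCGG, either strand), a Sp1-type element that was present in the other 5 and in 45.0% of all promoters. The 185 bases just before the outermost annotated start of MLH3 (chr14:75051533-75051717, minus strand) are shown as the sequence of the gene that differed most between the libraries.
MLH3: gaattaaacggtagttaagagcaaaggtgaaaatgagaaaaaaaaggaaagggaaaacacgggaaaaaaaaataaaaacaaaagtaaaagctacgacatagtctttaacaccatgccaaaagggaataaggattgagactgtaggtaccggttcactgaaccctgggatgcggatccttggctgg
Runs of A stand in the first part of this stretch. No link between these sequences and the levels was tested.

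The MutS genes were far apart in level, and both had lower values in REH. MSH6 (ENSG00000116062, chr2:47695530-47810063 in GENCODE 44 on GRCh38) had 37687 reads in REH and 53854 in 697, or 750 CPM (742 to 757) and 1458 CPM (1445 to 1470). It was 1.94-fold lower in REH, at a log2 ratio of -0.96 (-0.98 to -0.94), just inside the 2-fold limit. Per kb of its canonical transcript it lay above 98.5% of the compared protein-coding genes in REH and above 98.9% in 697. By this length MSH6 was among the most abundant mRNAs of both libraries, at 176 CPM per kb in REH and 342 in 697. Per kb of all annotated exons its level was 42.3 in REH and 82.2 in 697, and no rank was taken on that length. Its annotated span takes in 20748 bases of FBXO11 on the opposite strand. Of the reads that fell on MSH6, 5.49% in REH and 4.73% in 697 lay where another gene was opposite and were left out of the count. Such reads could come from either gene.

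MSH3 (ENSG00000113318, chr5:80654652-80876815) had 1196 reads in REH and 1293 in 697, or 23.8 CPM (22.5 to 25.2) and 35.0 CPM (33.1 to 37.0). Its log2 ratio was -0.56 (-0.67 to -0.44), a 1.47-fold lower level in REH. Per kb of canonical transcript it lay near the middle of the protein-coding genes, above 41.0% of them in REH and 48.8% in 697. Of the reads that fell on MSH3, 11.9% in REH and 11.2% in 697 lay where another gene was opposite and were left out of the count. These too could come from either gene. MSH6 and MSH3 differed in the same direction, but not by the same amount. Per kb of canonical transcript the level of MSH6 was 32.8 times that of MSH3 in REH and 43.4 times in 697, so the ratio was 1.32 times larger in 697. Per kb of all annotated exons, a length that in MSH6 is 17722 bases against 4265 for the canonical transcript, it was 9.48 times in REH and 12.5 times in 697. On that scale MSH6 made up 90.5% (89.9% to 90.9%) of the reads per kb of both genes in REH and 92.6% (92.2% to 93.0%) in 697.

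Among the MutL genes the lines differed in which gene had the fewest reads. PMS2 (ENSG00000122512, chr7:5970925-6009130) had 989 reads in REH and 763 in 697, or 19.7 CPM (18.5 to 20.9) and 20.7 CPM (19.2 to 22.2). Its log2 ratio was -0.07, with an interval of -0.21 to 0.07 that holds 0, and became 0.24 without TMM scaling. No difference in PMS2 was detectable beyond counting error and the choice of scaling. PMS1 (ENSG00000064933, chr2:189784085-189877629) had 1942 reads in REH and 2390 in 697, or 38.6 CPM (36.9 to 40.4) and 64.7 CPM (62.1 to 67.3). It was 1.67-fold lower in REH, at a log2 ratio of -0.74 (-0.83 to -0.66).

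MLH3 (ENSG00000119684, chr14:75013769-75051532) went the other way and by more than any other of the 6 genes. It had 1628 reads in REH and 218 in 697, or 32.4 CPM (30.8 to 34.0) and 5.90 CPM (5.14 to 6.74). Its level was 5.48-fold higher in REH, at a log2 ratio of 2.45 (2.25 to 2.67), which lay above that of 89.5% of all compared genes. Per kb of canonical transcript it lay above 36.6% of protein-coding genes in REH and above 21.5% in 697. Its reads fell almost evenly on both strands, with 799 and 829 in REH and 107 and 111 in 697, as was the case for all 6 genes. No protein-coding gene overlaps it.

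Set against each other, the MutL genes gave ratios that do not depend on how the libraries were scaled. The ratio of MLH3 to PMS2 was 5.76 times higher in REH than in 697. The ratio of PMS1 to MLH3 was 9.19 times higher in 697 than in REH. Per kb of canonical transcript, PMS1 made up 60.5% of the reads of the MutL genes in REH, MLH3 20.5% and PMS2 19.1%. In 697 the shares were 81.0% for PMS1, 2.98% for MLH3 and 16.0% for PMS2. Per kb of all annotated exons MLH3 took 30.5% in REH and 4.90% in 697. PMS1 led in both libraries and by both lengths, and MLH3 and PMS2 lay close together in REH on the canonical length, at 4.14 and 3.86 CPM per kb.

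**Figure D3:**
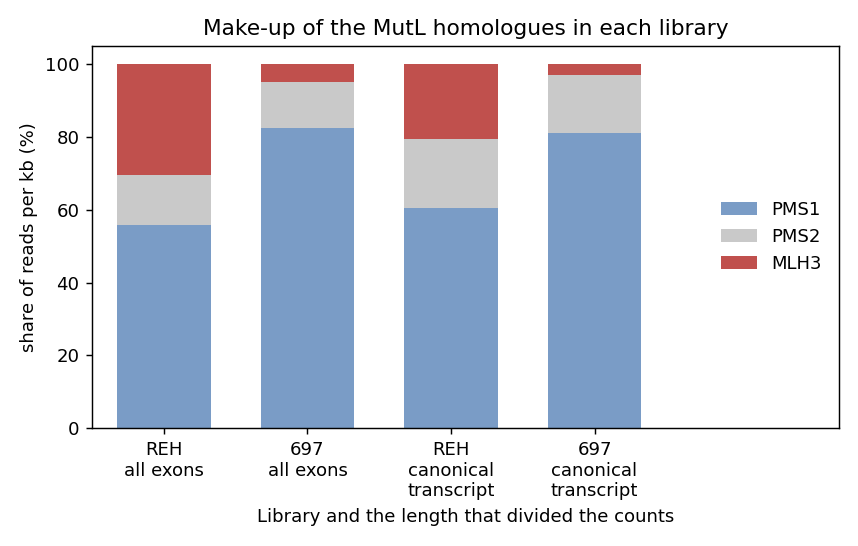
Share (%) of PMS2, PMS1 and MLH3 in their summed reads per kb, for each library and for each length that divided the counts; each bar is 1 library. MLH3 takes 20.5% or 30.5% of the bar in REH and 2.98% or 4.90% in 697, and PMS1 is the main component of each bar.

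The PMS2 values need their own caution, since much of the gene exists in near-identical copies on chromosome 7 and reads that map to several places were not counted. Of the 50-base stretches of its canonical exons, 62.3% (2714 of 4358) occurred exactly elsewhere in the genome, and 54.6% of those of 100 bases did. The repeated stretches covered all of exon 12 and 86.8% of exon 15, but none of exons 5 to 8 and 10. In MSH3, 4.53% of 50-base stretches were repeated, and in MSH6, PMS1, MLH3 and EXO1 none was. Reads from those stretches can be lost from the count, so the level of PMS2 beside the other genes is uncertain, by an amount that depends on the read length. The 6 annotated PMS2 copies with reads had 1131 reads in sum in REH and 1428 in 697, a log2 ratio of -0.78 (-0.89 to -0.67). PMS2CL, the largest of them, had 411 reads in REH and 578 in 697, at a log2 ratio of -0.94. The copies thus had lower values in REH, whereas PMS2 itself did not differ detectably, and how reads were divided between them was not tested. Of the 50-base stretches of PMS2, 61.1% also occurred in another annotated gene, which is not among these copies, against 13.2% in PMS2CL. The reads of that gene were not examined.

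EXO1 (ENSG00000174371, chr1:241847967-241895148), the exonuclease, had 2403 reads in REH and 4398 in 697, or 47.8 CPM (45.9 to 49.8) and 119 CPM (116 to 123). It was 2.49-fold lower in REH, at a log2 ratio of -1.32 (-1.39 to -1.24). The ratio stayed past the limit without TMM scaling, at -1.01, though barely. Per kb of canonical transcript EXO1 lay above 63.4% of protein-coding genes in REH and above 83.1% in 697.

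Ordered by CPM per kb of canonical transcript, the genes of REH ran from MSH6 (176) through EXO1 (13.9), PMS1 (12.2), MSH3 (5.36) and MLH3 (4.14) to PMS2 (3.86). In 697 the order was MSH6 (342), EXO1 (34.5), PMS1 (20.5), MSH3 (7.88), PMS2 (4.05) and MLH3 (0.755). The orders differed in the last 2 places, where MLH3 and PMS2 were exchanged. In REH these genes lay close together, and reads from the repeated stretches of PMS2 can be lost. The place of PMS2 in either order is therefore uncertain.

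The other steps of the pathway were then viewed through a list of 16 factors of excision and resynthesis. Among them are the clamp, its loader, the single-strand binding protein, the polymerase and the ligase. The list also holds the single-strand binding protein of mitochondria, at a log2 ratio of -0.52 (-0.58 to -0.45), which is included in the counts. Of the 16 factors, 1 was higher in REH and 1 was higher in 697, with a median log2 ratio of -0.43. The shares over all compared genes were 22.4% and 17.4%. Of the 16, 15 lay below 0, and the counting interval lay below 0 for 14. Among all 19145 compared genes, 47.9% lay below 0, and the interval lay below 0 for 7307. Without TMM scaling 3 of the 15 factors changed sign and the median of the 16 was -0.12. POLD4, the small accessory subunit of DNA polymerase delta, was higher in REH, with 392 reads against 124 and a log2 ratio of 1.21. RFC3, a subunit of the clamp loader, was higher in 697, with 1484 reads in REH against 3676 and a log2 ratio of -1.75. HMGB1, a chromatin protein that takes part in excision in reconstituted repair, had a log2 ratio of -0.77, and LIG1, the ligase that seals the strand, one of -0.71.

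EXO1, the clamp and the polymerase serve DNA replication as well as repair, so 14 genes of S phase and proliferation were set beside them. None of the 14 was higher in either line by the 2-fold limit, and their median log2 ratio was -0.60. Of these genes, 12 lay below 0, beside 47.9% of all compared genes, and 2 of the 12 changed sign without TMM scaling. RRM2, which makes deoxynucleotides, had a log2 ratio of -0.93, MCM7, a subunit of the replicative helicase, one of -0.78, and TOP2A, a topoisomerase of dividing cells, one of -0.76. At the other end, CCNB1, a cyclin of mitosis, lay at 0.44 and MKI67, a marker of cycling cells, at 0.04. The median of the 6 mismatch repair genes, at -0.65, lay close to that of the S-phase genes. Whether the lower values of MSH6, MSH3, PMS1 and EXO1 in REH came with fewer cells in S phase or with less mRNA per cell cannot be told apart in bulk RNA. MLH3 lay above each of the 14 genes.

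A further list held 6 accessory nucleases, helicases and recruitment factors. None of them differed by 2-fold, and their median log2 ratio was -0.48. SETD2, which sets the histone mark that recruits the MSH6 complex to chromatin, had a log2 ratio of -0.75. FAN1, a nuclease that binds MutL proteins, had one of 0.41.

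**Figure D4:**
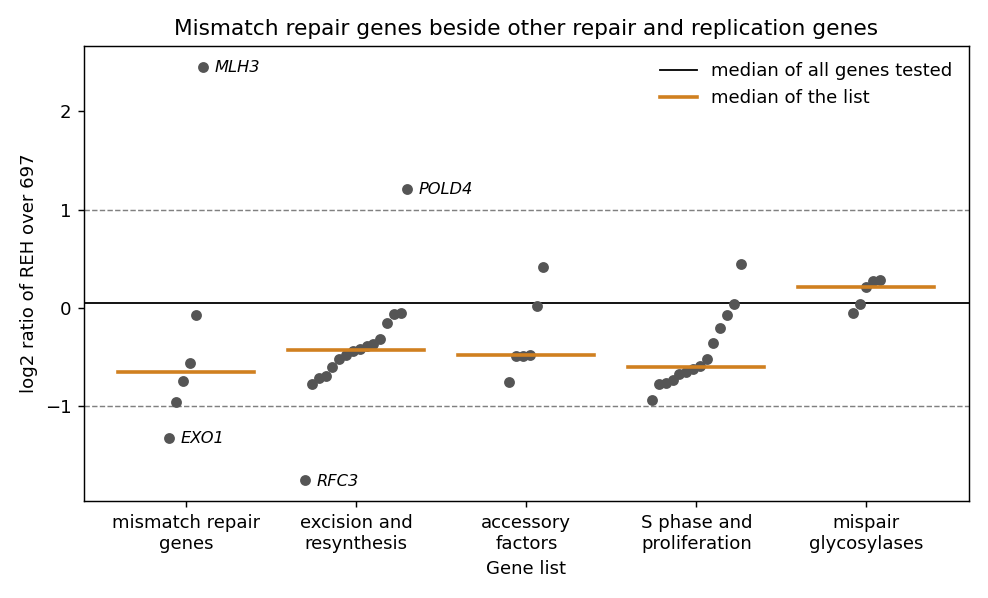
Log2 ratio of REH over 697 for each gene (points) of the mismatch repair genes and of other lists of repair and replication genes, with the median of each list and, as a line across, the median of all compared genes; dashed lines mark a log2 ratio of 1 in either direction. MLH3 is the highest point among the mismatch repair genes, whose median of -0.65 lies beside -0.60 for the S-phase genes and -0.43 for the excision and resynthesis factors.

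PMS2 and PMS1 are among the genes that share their promoter region with a gene on the opposite strand whose start lies within 1 kb, so the level of the partner was compared with that of the member. PMS2 and AIMP2, a scaffold protein of the tRNA synthetase complex, start 223 bases apart. AIMP2 had 1497 reads in REH and 1239 in 697, a log2 ratio of -0.17 that was 0.14 without TMM scaling, and the difference from PMS2 was 0.10 (-0.07 to 0.28). A further 1172 reads in REH and 981 in 697 fell on AIMP2 where another gene lay opposite and were left out of the count. Which gene gave these reads cannot be told, since reads fell evenly on both strands. PMS1 and ORMDL1, a regulator of sphingolipid synthesis, start 111 bases apart. ORMDL1 had 3539 reads in REH and 2807 in 697, a log2 ratio of -0.11 that was 0.20 without TMM scaling, and the ratio of PMS1 was lower by 0.63 (a difference of -0.63, interval -0.75 to -0.52). PMS1 and its partner thus differed between libraries by unequal amounts beyond counting error, and the interval for the PMS2 pair holds 0.

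Finally, each gene was placed among the compared protein-coding genes that start within 5 Mb of it. The 77 neighbours of MLH3 had a median log2 ratio of 0.30 (quartiles -0.36 and 0.85), and 7 of them were at or above MLH3. The 19 neighbours of EXO1 had a median of -0.46 (quartiles -0.81 and -0.32), and 3 of them were at or below EXO1. Around MSH6 the median of 27 neighbours was -0.06, with 3 at or below MSH6. Around PMS1 the median of 24 neighbours was -0.14, with 7 at or below PMS1, and around MSH3 the median of 34 neighbours was -0.20, with 13 at or below MSH3. The 60 neighbours of PMS2 had a median of 0.10, with 27 at or below PMS2. MLH3, EXO1 and MSH6 thus lay toward the edge of their surroundings, and the other 3 lay within them.

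**Figure D5:**
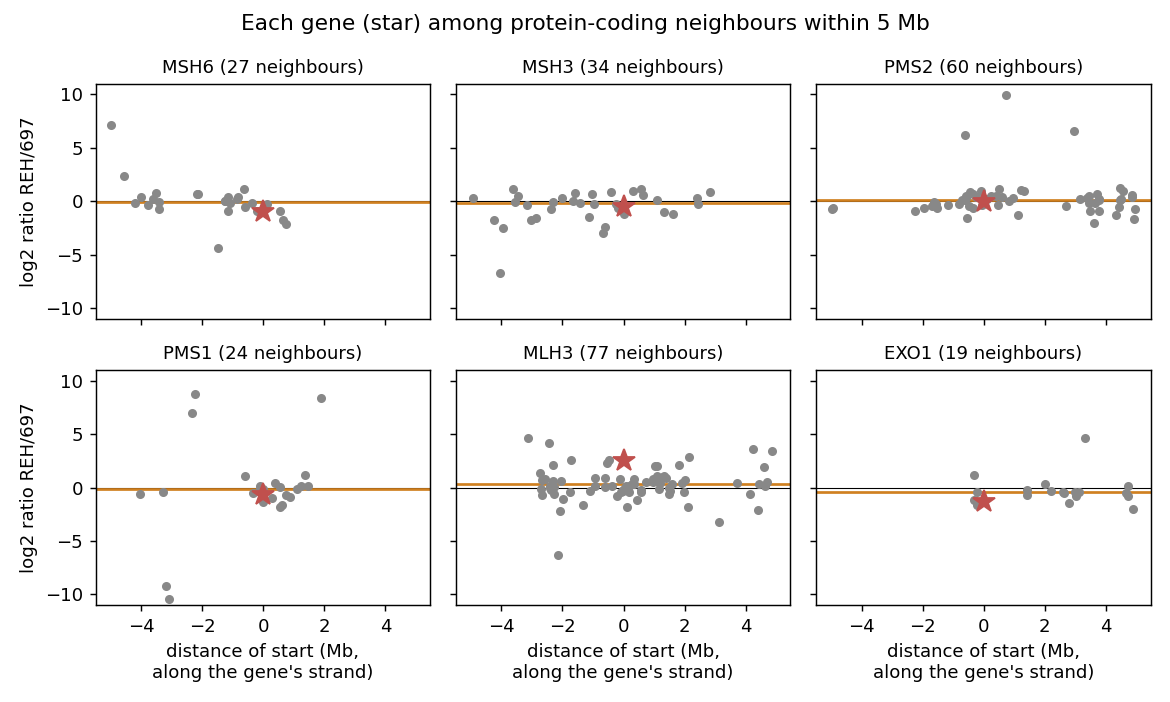
Log2 ratio of REH over 697 for each gene (star) and its compared protein-coding neighbours (points), by the distance of their starts in Mb along the strand of the gene, within 5 Mb; the thick line is the median of the neighbours and the thin line is 0. MLH3 lies above 70 of its 77 neighbours, and EXO1 lies below 16 of its 19.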

How the data were processed

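The deposited files hold the raw counts of reads per gene made by the authors for 1 library each of REH and 697, not normalized. Per the study's methods, poly(A) RNA was sequenced on an Illumina sequencer and aligned with STAR to hg38. The labels describe ribodepleted, stranded libraries, and the submitters' processing notes name hg19. The annotation release and read length are not given in the sources used here. Reads fell evenly on both strands, so the unstranded column was taken, which leaves out reads that fit several places or several genes.

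Gene IDs were matched to GENCODE 44 (51996 of 57773). Genes reaching 10 reads in REH or 697 were compared (19145, of which 13489 protein-coding, all 6 members included). Totals were scaled by TMM in edgeR 4.0.16 under R 4.3.3 (factors 1.11 for REH and 0.899 for 697). Ratios were taken after adding 0.5 reads. Intervals at 95% cover counting error only, and take each read as independent, which PCR duplicates are not. With 1 library per line no test was run. Genes named were all 6 members, in lists of over 8 genes the 3 farthest from 0 in each direction, promoter partners and PMS2 copies. A gene that this rule names is left out of the text. Members and lists were chosen with earlier results of these data known. Repeated stretches were exact matches of 50 or 100 bases on either strand of the genome. The computation was checked on simulated data. Alternatives were DESeq2 1.42.0 size factors, TMM from protein-coding genes, unscaled totals, another number of added reads (5), minimums of 1 and 50 reads, a log2 limit of 2, the strand columns singly or summed, and other lengths.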

Additional observations from a re-analysis of the deposited data

How the results depend on the processing

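With 1 library per line, no replicate could be left out and the spread between cultures is unknown. No paired analysis was possible because a single library stands for each line. Depth was no limit for the 6 genes, the lowest of which had 218 reads. Over 9 alternatives the log2 ratio ranged from -0.99 to -0.65 for MSH6, -0.58 to -0.25 for MSH3, -0.10 to 0.24 for PMS2, -0.77 to -0.44 for PMS1, 2.43 to 2.76 for MLH3 and -1.38 to -1.01 for EXO1. PMS2 was the gene that changed sign, without scaling. The sum of the strand columns was added after seeing the data. Unscaled totals gave medians of -0.34 for the mismatch repair genes, -0.12 for the excision and resynthesis factors and -0.30 for the S-phase genes. The S-phase median was -0.56 from reads on the strand of the gene. At a log2 limit of 2, 0 mismatch repair genes were higher in 697, and 0 excision and resynthesis factors were higher in REH and 0 in 697. Shares depended on the length used. The share of MSH6 was 97.0% in REH and 97.7% in 697 on the canonical length, and 96.9% and 97.7% with no length. Per kb of all annotated exons it was 89.5% and 92.1% from sense reads and, in 697, 92.1% from antisense reads. The share of PMS2 was 19.1% and 16.0% on the canonical length, and 21.7% and 22.6% with no length. Per kb of all annotated exons it was 13.8% in REH. On that length it was 14.7% in REH on the strand of the gene and 12.8% on the opposite strand.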

Other observations

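Glycosylases remove mispaired bases without the mismatch repair complexes. None of the 5 that were compared differed by 2-fold between the libraries, and their median log2 ratio was 0.22. TDG, which excises thymine opposite guanine, had a log2 ratio of 0.27, UNG, which excises uracil, one of 0.22, SMUG1, a further uracil glycosylase, one of 0.28, and MBD4, which acts at methylated sites, one of 0.04. The fifth lay below 0, at -0.05, and above 0 without TMM scaling, at 0.25. Of the MutS homologues of meiosis, MSH5 had 790 reads in REH and 755 in 697, a log2 ratio of -0.38, and MSH4 had 31 and 5 reads, a log2 ratio of 2.07 (0.81 to 3.91).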
